A study of Mus musculus with 34 samples.

Results

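The mitochondrial genome transcripts are the genes of the mouse mitochondrial chromosome, taken as every row of the count table whose Ensembl ID maps to a symbol beginning with mt-. This rule found 37 of 46071 genes: 13 mRNAs, 2 rRNAs and 22 tRNAs. They were measured by stranded RNA sequencing of total RNA from a powder of gastrocnemius and quadriceps taken from male mice, in 34 libraries that the labels place in 8 genotype groups. The insulin receptor is deleted in MIRKO (4 libraries, with 3 of its floxed littermate controls, IRlox). The receptor for IGF-1 is deleted in MIGF1RKO (5 libraries, with 4 IGFRlox controls), and the pair of receptors in MIGIRKO (6 libraries, with 3 IRIGFRlox controls). QKO (7 libraries, with 2 Qlox controls) lacks this pair and also the transcription factors FoxO1, FoxO3 and FoxO4. Each line was kept as its own colony. The Cre of MIRKO, MIGIRKO and QKO was Acta1-Cre, which is driven by the skeletal actin promoter and acts in muscle fibers, so that the other cells of the tissue keep the genes. The driver used for MIGF1RKO and the ages of the mice are not given in the sources used here. All lines were on a mixed background of C57Blk6, C57Blk6J and 129, in which the Nnt genotype, a nuclear gene of the mitochondrial inner membrane, also varied. The mitochondrial haplotype of each colony is not given in the sources used here.

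Mitochondrial DNA is a small circle that is transcribed from both strands into long precursor RNAs. The precursors are cut at the tRNAs that lie between the other genes, which frees the mRNAs and rRNAs. The mRNAs encode core subunits of the respiratory chain and of ATP synthase, the rRNAs form the mitochondrial ribosome, and the tRNAs serve translation inside the organelle. All proteins that copy, transcribe, cut and translate this genome come from nuclear genes. Skeletal muscle relies on it for oxidative phosphorylation, and oxidative fibers hold more mitochondria than glycolytic ones. In these annotations 28 genes lie on the plus strand and 9 on the minus strand, the latter being 8 tRNAs and mt-Nd6.

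Total counts ran from 1499025 (QKO 5) to 7581198 per library. Insr, the insulin receptor gene, was 27.8 to 69.7 CPM (counts scaled to a library total of 1e6, here after the scaling described below) in MIRKO, MIGIRKO and QKO and 141 to 255 CPM in the other groups, so every library matched its label for this gene. Igf1r was lower in MIGF1RKO (7.56 to 11.2 CPM against 13.5 to 20.3 in IGFRlox) and in QKO (4.01 to 11.9 against 16.7 to 18.5 in Qlox), but not in MIGIRKO (15.0 to 25.7 against 16.4 to 20.3 in IRIGFRlox). Foxo4 was 5.07 to 10.2 CPM in QKO and 144 to 160 in Qlox, and Foxo1 was 12.6 to 28.3 against 131 to 148, while Foxo3 was 92.9 to 136 against 79.6 to 103. Counts per gene thus do not show the labelled loss of Igf1r in MIGIRKO or of Foxo3 in QKO. By correlation across 13151 genes, 14 of the 34 libraries lay closest to a library of another group, among them every MIRKO library. MIRKO 1 and MIRKO 3 lay closest to MIGIRKO 6, MIRKO 2 to MIGF1RKO 4, and the library labelled MIRKO 4 to MIGIRKO 3 (r = 0.984). MIGIRKO 1 and MIGIRKO 3 lay closest to MIRKO 4, and the library labelled MIGIRKO 6 to MIRKO 3 (r = 0.976). With only the libraries labelled MIRKO 4 and MIGIRKO 6 left out, MIGIRKO had 12 mitochondrial genes called in place of 10 and MIRKO 0 in place of 1. These counts are given without the calls over all genes in that setting. QKO 3, QKO 5 and QKO 6 stood apart at mt-Nd3, as described next.

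A stretch of 4653 bases of the mitochondrial chromosome (GRCm38, chrM:6390-11042) is spanned by matches to a nuclear copy on chromosome 1 (chr1:24611535-24616188, minus strand). There the GENCODE M21 annotation holds 7 pseudogenes of mitochondrial mRNAs. The stretch runs from the first to the last base that they match, with an offset that changes by 1 base after mt-Nd3. Bases between the pseudogenes were not compared, so no match was shown for the 5 tRNAs inside it or for most of mt-Atp8. The pseudogenes match mt-Co1 (Gm29216), mt-Co2 (Gm28661), mt-Atp6 (Gm10925), mt-Co3 (Gm28437), mt-Nd3 (Gm28438), mt-Nd4l (Gm10222) and mt-Nd4 (Gm28439) at 99.7% identity or more. Of the 37 genes, 11 lie wholly inside the matched stretch (6 mRNAs and 5 tRNAs), 2 mRNAs lie partly inside it (mt-Co1 and mt-Nd4) and 24 lie outside. A read from a matched part can fit both places equally well. How multi-mapping reads were counted is not given in the sources used here. The first 60 bases of 2 genes and their copies are shown because they differ in what a read can tell. For mt-Co2 (chrM:7013-7072, plus strand) and Gm28661 (chr1:24615506-24615565, minus strand) the printed bases are the same. For mt-Nd3 (chrM:9459-9518, plus strand) and Gm28438 (chr1:24613060-24613119, minus strand) there is 1 difference in the 345 bases compared, T3C, counted from the start of mt-Nd3 and printed in capitals.
mt-Co2: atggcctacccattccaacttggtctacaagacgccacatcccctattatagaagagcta
Gm28661: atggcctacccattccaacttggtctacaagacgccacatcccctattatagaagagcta
mt-Nd3: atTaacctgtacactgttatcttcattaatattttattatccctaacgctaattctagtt
Gm28438: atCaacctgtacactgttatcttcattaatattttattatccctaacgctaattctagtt

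Counts per length differed widely between genes, and the 5 mRNAs with the lowest levels lie wholly inside the matched stretch. Compared as levels per length over the 12 floxed libraries, mt-Nd1, a core subunit of complex I, was the highest, at 14192 CPM per kb (median; 8934 to 17276). It was followed by mt-Co1, the catalytic subunit of complex IV (8110), mt-Cytb, the mitochondrial subunit of complex III (6503), mt-Nd2 (5961) and mt-Nd5 (4084), both of complex I. The means of mt-Co1 and mt-Cytb lay within 1 SD of the next in this order, whereas those of mt-Nd1, mt-Nd2 and mt-Nd5 lay above the next by 2.55, 1.51 and 1.59 times the larger SD. Then came mt-Nd3 (2576), mt-Nd4 (2404), mt-Rnr2 (1951) and mt-Nd6 (1872), each within 1 SD of the next, then mt-Ta, the tRNA for alanine (1721), and mt-Rnr1 (937). The mRNAs other than mt-Nd3 that lie wholly inside the matched stretch were far lower: mt-Co2 had 145 CPM per kb, mt-Co3 60.7, mt-Atp6 50.8, mt-Nd4l 11.3 and mt-Atp8 3.62. mt-Co2 and mt-Co3 encode core subunits of complex IV, and mt-Atp6 and mt-Atp8 subunits of ATP synthase. The levels of these 5 low mRNAs, and of mt-Nd3, mt-Co1 and mt-Nd4, are counts that the pipeline assigned to the mitochondrial place. The part of the copy in them was not tested. Levels are taken over the full gene length, but the pseudogenes match 483 of 1545 bases of mt-Co1 and 876 of 1378 of mt-Nd4. The places of mt-Nd3, mt-Co1 and mt-Nd4 in the order can thus depend on how matched reads were counted.

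**Figure D1:**
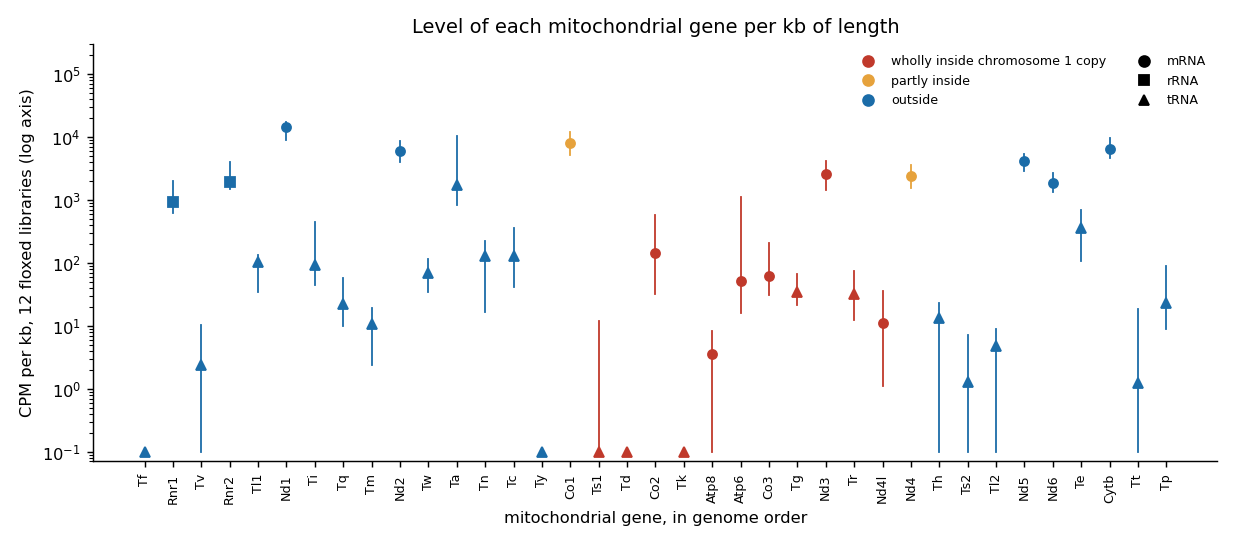
Median level of each of the 37 mitochondrial genes in CPM per kb over the 12 floxed libraries (log axis; lines run from the lowest to the highest library, values under 0.1 are drawn at 0.1), in genome order. Colours give the position relative to the stretch matched on chromosome 1 and shapes the class; 5 of the 6 mRNAs wholly inside it lie between 3.62 and 145, and those outside it between 1872 and 14192.

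At mt-Nd3, a small subunit of complex I, 3 libraries had nearly all counts at the nuclear copy. QKO 3, QKO 5 and QKO 6 had 37, 47 and 30 counts in mt-Nd3 and 7051, 1325 and 5769 in Gm28438, so that 96.6% to 99.5% of the sum lay in the copy. The other 31 libraries had 1116 to 8610 counts in mt-Nd3 and 2 to 63 in Gm28438, or 0.102% to 1.59% of the sum. The sum of both, in CPM of the unscaled total, was 915 to 1632 in the 3 libraries and 331 to 1483 in the others, so the ranges of the sum overlap where those of the separate genes do not. The neighbouring tRNA genes also had few counts in these 3 libraries, which stood apart for mt-Tg but not, in QKO 3, for mt-Tr. mt-Tg, which ends at the base before mt-Nd3, had 0 counts in QKO 3, QKO 5 and QKO 6 and 1 to 25 in every other library, and mt-Tr, just after mt-Nd3, had 2, 0 and 0 counts there and 2 to 29 elsewhere. The 3 libraries were picked out by these counts, so the differences are descriptions without a test, and their cause was not tested.

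**Figure D2:**
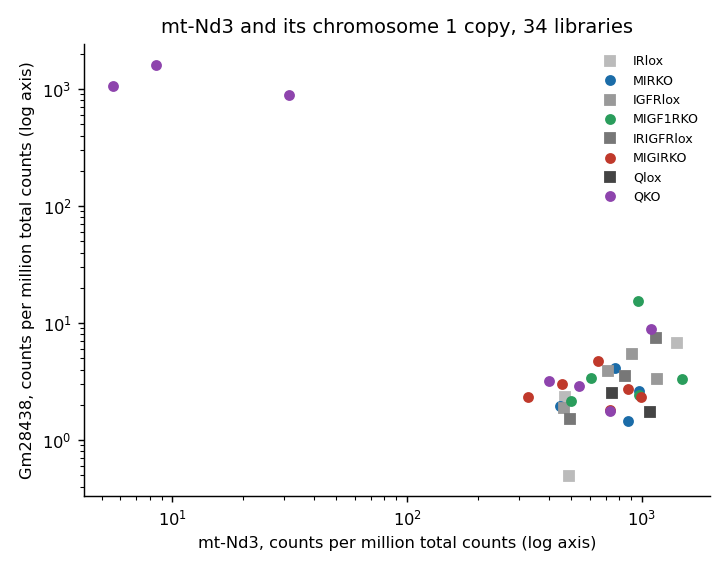
Counts of mt-Nd3 (x axis) against counts of Gm28438 (y axis), both in CPM of the unscaled total on log axes, for the 34 libraries; squares are floxed controls and circles knockouts. QKO 3, QKO 5 and QKO 6 lie at 5.57 to 31.4 for mt-Nd3 and 884 to 1623 for Gm28438, and the other 31 libraries at 328 to 1480 and 0.498 to 15.6.

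Mitochondrial transcripts made up 3.20% to 7.37% of all counts in a library. In MIRKO the share was 3.92%, 3.53%, 4.15% and 5.23% in the 4 libraries, and in IRlox 5.25% to 5.92% in the 3, so the groups did not overlap. The means were 4.21% ± 0.73 (SD, n = 4) and 5.54% ± 0.35 (SD, n = 3). In MIGIRKO the share was 4.11% ± 0.81 (SD, n = 6; 3.20% to 5.09%), and in IRIGFRlox 5.35% ± 1.70 (SD, n = 3), the controls being 3.86%, 4.98% and 7.19%. The groups overlapped, and without IRIGFRlox 3 the difference in means went from -1.24 to -0.31 percentage points. MIGF1RKO had 6.13% ± 1.03 (SD, n = 5) against 5.13% ± 0.80 in IGFRlox (SD, n = 4). QKO had 5.25% ± 0.80 (SD, n = 7) against 4.85% ± 0.63 in Qlox (SD, n = 2). By exact two-sided permutation tests over libraries, adjusted over 5 comparisons, none of these passed: the adjusted p was 0.143 for MIRKO, where 4 against 3 libraries cannot go below an unadjusted p of 0.0571, 0.268 for both MIGF1RKO and MIGIRKO, and 0.556 for QKO. Some library runs, the blocks of consecutive library numbers in the labels, held both groups of a comparison, with 1 library a group. There the difference was -1.52 points for MIRKO, and 2.39, 0.93 and 0.93 for MIGF1RKO. It was 0.90, -1.73 and -3.39 points for MIGIRKO, and -1.44 and 0.43 for QKO. QKO set directly against MIGIRKO was higher by 1.14 points (exact permutation adjusted p = 0.143), and by 2.30 points on TMM-scaled totals (exact permutation adjusted p = 0.0117). On those totals the MIRKO and MIGIRKO differences were -2.16 and -2.74 points (exact permutation adjusted p = 0.0952 and 0.0595). TMM factors, which estimate the sequencing effort spent on the bulk of genes, were 1.23 ± 0.05 in MIGIRKO and 1.14 ± 0.11 in MIRKO and had means of 0.876 to 0.965 in the other groups. In bulk tissue fewer muscle fibers and less mitochondrial RNA per fiber cannot be told apart.

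**Figure D3:**
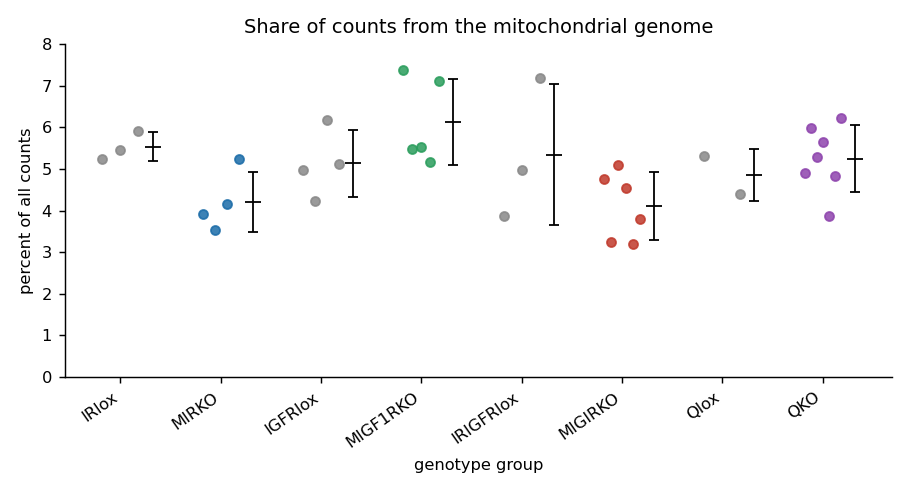
Mitochondrial transcripts as a percent of all counts in each library (points) of the 8 genotype groups, with the mean and SD beside each group. MIRKO libraries lie between 3.53% and 5.23% and IRlox between 5.25% and 5.92%; the 3 IRIGFRlox libraries span 3.86% to 7.19%.

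For single genes, counts were tested with edgeR's quasi-likelihood method over all 13646 genes with enough counts, which took in 27 of the 37: the 13 mRNAs, the 2 rRNAs and 12 tRNAs. Changes below are log2 differences on TMM-scaled totals with their standard errors (SE). A gene is called at a Benjamini-Hochberg adjusted p under 0.05. Whether the libraries of compared groups overlap is given as a description only. The share of all tested genes without overlap was not counted, so an absence of overlap is not set against a background.

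In the libraries labelled MIGIRKO, in which Insr but not Igf1r counts were below the controls, 7 mRNAs fell: mt-Nd1, mt-Nd2, mt-Nd4, mt-Nd5 and mt-Nd6 of complex I, mt-Co1 of complex IV and mt-Cytb of complex III. With mt-Tl1, mt-Ti and mt-Tq, the tRNAs for leucine, isoleucine and glutamine, 10 of the 27 tested genes were called lower and 0 higher, where 16.7% of all tested genes were called lower, 17.0% higher and 33.7% either way. The 13 mRNAs had a median log2 change of -0.92 and the rRNAs of -0.26, beside 0.04 for all tested genes. The 7 called mRNAs are those that are not wholly inside the stretch copied on chromosome 1, and 0 of the 6 wholly inside it was called (log2 changes of -1.84 to 0.15, SE 0.69 to 1.12).

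mt-Nd2 showed the largest fall among the called mRNAs. It was 4744, 6233 and 8862 CPM in the IRIGFRlox libraries and 2023 to 3481 CPM in MIGIRKO (median 2783, n = 6), a log2 change of -1.27 ± 0.21 (edgeR adjusted p = 2.61e-05). Every MIGIRKO library lay below every control. mt-Nd1 was 8550, 12125 and 16534 CPM in the controls and 5069 to 7839 CPM in MIGIRKO (median 6802), a change of -0.92 ± 0.19 (adjusted p = 0.000332). mt-Nd4, a membrane subunit of complex I, was 2426, 3856 and 4883 CPM against 1290 to 2302 CPM (median 1805), a change of -1.06 ± 0.23 (adjusted p = 0.000889). mt-Nd5, another membrane subunit, was 5179, 7432 and 9926 CPM against 3203 to 5021 CPM (median 3767), a change of -0.94 ± 0.17 (adjusted p = 0.000115). The groups did not overlap for these 3 genes either, and IRIGFRlox 1 was the control closest to the knockout range in each. mt-Nd6, the mRNA of the minus strand, was 689, 1196 and 1385 CPM in the controls and 455 to 722 CPM in MIGIRKO (median 503), a change of -0.99 ± 0.20 (adjusted p = 0.000353). Here the groups overlapped, since the lowest control lay under the highest knockout.

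mt-Co1 was 11676, 12882 and 18332 CPM in the IRIGFRlox libraries and 5721 to 10764 CPM in MIGIRKO (median 7978), with a log2 change of -0.82 ± 0.22 (edgeR adjusted p = 0.00505). mt-Cytb was 6539, 7131 and 11078 CPM against 2898 to 6144 CPM (median 4307), with a change of -0.88 ± 0.24 (adjusted p = 0.00474). The groups did not overlap for either gene, with IRIGFRlox 3 the highest control for each. Unscaled library totals moved the median of all genes to 0.53 and the calls over all genes from 2282 lower and 2321 higher to 688 and 6314. On that scale the calls of mt-Nd1, mt-Nd2, mt-Nd4, mt-Nd5, mt-Nd6, mt-Tl1 and mt-Ti remained (log2 changes of -0.43, -0.79, -0.57, -0.45, -0.51, -0.85 and -1.91), and those of mt-Co1 (-0.33, adjusted p = 0.2055), mt-Cytb (-0.39, adjusted p = 0.143) and mt-Tq (-0.79, adjusted p = 0.162) did not. Without IRIGFRlox 3, 6 genes were called, and mt-Co1, mt-Cytb, mt-Ti and mt-Tq were lost (edgeR adjusted p of 0.074, 0.087, 0.17 and 0.26).

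The rRNAs were not called in MIGIRKO. mt-Rnr1, the small-subunit rRNA, was 1136, 891 and 1904 CPM in IRIGFRlox and 682 to 1594 CPM in MIGIRKO (median 1093), with a change of -0.25 ± 0.31 (edgeR adjusted p = 0.547). mt-Rnr2, the large-subunit rRNA, was 2451, 3708 and 6218 CPM against 2086 to 4836 CPM (median 3443), with a change of -0.27 ± 0.30 (adjusted p = 0.514). The groups overlapped for both, and with library totals the values were 0.23 and 0.21, so their direction turned with the scaling.

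The 3 called tRNAs rest on few counts, and their sequences are shown because neighbouring genes overlap here, so that a read can cover more than 1 gene. Capitals mark bases that share their position with another gene: mt-Ti shares 2 bases with mt-Nd1 and 3 with mt-Tq, which lies on the opposite strand. The positions are chrM:2676-2750 for mt-Tl1 and chrM:3706-3774 for mt-Ti, on the plus strand, and chrM:3772-3842 for mt-Tq, on the minus strand. mt-Ta, the tRNA for alanine (chrM:5018-5086, minus strand), is shown as the tRNA with the most counts and shares no base.
mt-Tl1: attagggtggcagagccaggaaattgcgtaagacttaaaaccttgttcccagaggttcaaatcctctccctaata
mt-Ti: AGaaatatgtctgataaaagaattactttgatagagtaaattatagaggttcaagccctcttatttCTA
mt-Tq: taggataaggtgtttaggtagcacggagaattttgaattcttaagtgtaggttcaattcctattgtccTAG
mt-Ta: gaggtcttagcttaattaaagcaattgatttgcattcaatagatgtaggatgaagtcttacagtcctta

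mt-Tl1, which lies between mt-Rnr2 and mt-Nd1, was 5.19, 8.80 and 9.20 CPM in IRIGFRlox and 1.01 to 4.49 CPM in MIGIRKO (median 3.13), a log2 change of -1.33 ± 0.34 (edgeR adjusted p = 0.00332). mt-Ti was 6.87, 6.12 and 30.6 CPM against 1.36 to 4.25 CPM (median 2.69), a change of -2.39 ± 0.61 (adjusted p = 0.00365). mt-Tq was 1.37, 1.53 and 2.99 CPM against 0.151 to 1.23 CPM (median 0.869), a change of -1.27 ± 0.48 (adjusted p = 0.0391). The groups did not overlap for any of the 3, and IRIGFRlox 3 alone held the high mt-Ti value. mt-Ta had 141 to 2983 counts per library over all groups, the highest being IGFRlox 2, and a change of -0.88 ± 0.46 in MIGIRKO (adjusted p = 0.138). Among all 22 tRNAs, 9 had at least 1 count in every library and 2, mt-Td and mt-Tk, had 0 counts in all 34.

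**Figure D4:**
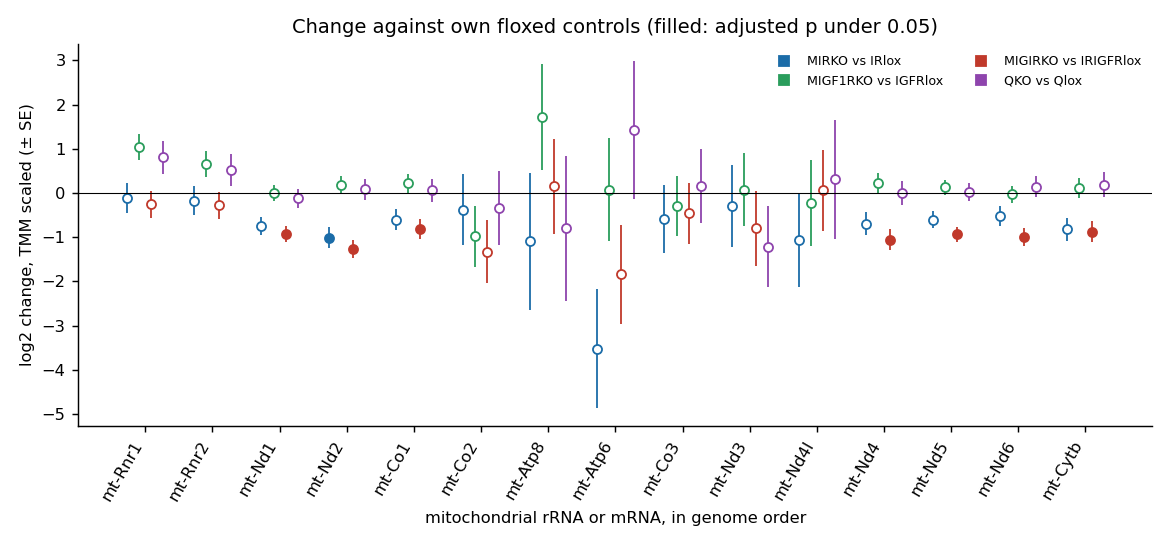
Log2 change on TMM-scaled totals (points) with its SE (bars) of the 2 rRNAs and 13 mRNAs in the 4 knockout groups against their own floxed controls, in genome order; filled points have an adjusted p under 0.05. In MIGIRKO 7 mRNAs are filled, from -1.27 to -0.82, in MIRKO mt-Nd2 alone (-1.01), and in MIGF1RKO and QKO none; the wide bars from mt-Co2 to mt-Nd4l belong to the mRNAs wholly inside the copied stretch.

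Loss of the insulin receptor alone in MIRKO gave negative values for all 13 mRNAs, of which mt-Nd2 alone was called. It was 6448, 6516 and 6390 CPM in IRlox and 3552, 2951, 2967 and 3360 CPM in MIRKO, a log2 change of -1.01 ± 0.23 (edgeR adjusted p = 0.0286). The 4 knockout libraries lay well apart from the 3 controls. This was 1 call lower among 27 tested genes, where 0.865% of all tested genes were called lower, 0.381% higher and 1.25% either way. It was lost with library totals (adjusted p = 0.0534), with library runs as a block (0.0792), without the libraries labelled MIRKO 4 and MIGIRKO 6 (0.0745), with the compared groups only and without any of IRlox 1, IRlox 2, IRlox 3, MIRKO 3 or MIRKO 4, by edgeR in each case. Scaling also mattered over all genes, where calls went from 118 lower and 52 higher to 50 and 229 with library totals and the median of all genes from 0.03 to 0.30. The 13 mRNAs had a median log2 change of -0.69, and 8 of them had an unadjusted p under 0.05, as did 2345 of all 13646 tested genes.

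The other mRNAs outside the copied stretch missed the threshold in MIRKO. mt-Nd1 was 14976, 13860 and 12727 CPM in IRlox and 9395, 9314, 7245 and 7286 CPM in MIRKO (log2 change -0.74 ± 0.20, edgeR adjusted p = 0.0637). mt-Cytb was 7412, 8613 and 7750 CPM against 4918, 3742, 3351 and 6010 CPM (-0.81 ± 0.26, adjusted p = 0.102). mt-Nd5 was 7329, 7534 and 6540 CPM against 5088, 4478, 4432 and 4827 CPM (-0.60 ± 0.19, unadjusted p = 0.00338). The libraries of the groups did not overlap for these 3 genes, nor for mt-Nd4 (-0.69 ± 0.26) or mt-Co1 (-0.60 ± 0.24), while mt-Nd6 (-0.52 ± 0.22; 882, 983 and 765 CPM against 675, 519, 452 and 808 CPM) overlapped through MIRKO 4. mt-Rnr1 was 899, 1084 and 715 CPM against 754, 692, 799 and 1082 CPM (-0.11 ± 0.33), and mt-Rnr2 was 3744, 3016 and 2985 CPM against 2584, 2153, 2654 and 4103 CPM (-0.18 ± 0.33). The rRNA groups overlapped, and both values turned positive with library totals. A direct test of MIGIRKO change minus MIRKO change called 0 of the 27 genes by edgeR, 0 at an unadjusted p under 0.05, and 0 by DESeq2 and limma-voom. Over all 13646 genes edgeR called 0% in that test (1421 at an unadjusted p under 0.05) and DESeq2 called 8. Without the libraries labelled MIRKO 4 and MIGIRKO 6, edgeR called 457 genes (285 lower and 172 higher), among them 0 of the 27. For mt-Nd2 the difference with all libraries was -0.27 ± 0.31.

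Loss of the IGF-1 receptor alone in MIGF1RKO called 0 of the 27 genes by edgeR, where 0.616% of all tested genes were called (0.352% lower and 0.264% higher). At an unadjusted p under 0.05 there were 5, beside 1427 of all 13646 tested genes, and the 5 had higher values: both rRNAs and the tRNA genes mt-Tl1, mt-Tq and mt-Tn. mt-Rnr1 was 675, 718, 1451 and 877 CPM in IGFRlox and 2672, 2469, 1107, 1418 and 1889 CPM in MIGF1RKO, a log2 difference of 1.04 ± 0.30 (edgeR adjusted p = 0.117). mt-Rnr2 was 2604, 2348, 5240 and 3159 CPM against 6107, 6127, 3430, 3831 and 6620 CPM, a difference of 0.65 ± 0.29 (adjusted p = 0.419). The groups overlapped through IGFRlox 3, the highest control for both. DESeq2 called 1 of the 27 genes, and 2 were called with all 12 floxed libraries as control, where 239 of 13115 tested genes were called. The 13 mRNAs had a median of 0.08, and those not wholly inside the copied stretch ranged from -0.03 to 0.23 (SE 0.17 to 0.23).

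In QKO, labelled as lacking the FoxO factors and both receptors, 0 of the 27 genes were called against Qlox by edgeR (2 at an unadjusted p under 0.05, mt-Rnr1 and mt-Tl1, beside 1579 of all tested genes, and 0 by DESeq2), where 0.506% of all tested genes were called (0.454% lower and 0.0513% higher). The 7 mRNAs that were called in MIGIRKO had values from -0.12 to 0.19 here (SE 0.20 to 0.28). mt-Nd2 was 5879 and 5247 CPM in the 2 Qlox libraries and 3830 to 7311 CPM in QKO (median 6324, n = 7), a difference of 0.08 ± 0.24 (edgeR adjusted p = 0.931). mt-Nd5 was 8672 and 7124 CPM against 6526 to 9856 CPM (median 7725), a difference of 0.02 ± 0.20 (adjusted p = 0.981). The Qlox libraries lay within the QKO range for both genes. mt-Rnr1 was 1077 and 596 CPM against 1009 to 2370 CPM (median 1388), a difference of 0.81 ± 0.37 (adjusted p = 0.405), and mt-Rnr2 was 3771 and 2495 CPM against 2868 to 5900 CPM (median 4466), a difference of 0.53 ± 0.36 (adjusted p = 0.590). The groups overlapped for both rRNAs through Qlox 1. For mt-Nd3, which 3 of these libraries counted at the copy, the difference was -1.21 ± 0.92, -0.43 without QKO 3, QKO 5 and QKO 6 and -0.05 when each gene was summed with its copy, with adjusted p of 0.638, 0.785 and 0.982 by edgeR. With 2 controls, the precision of each of these values is that of the pooled spread of all groups.

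The QKO change was then compared with the MIGIRKO change. By label these differ in the FoxO deletion, but they also come from separate colonies. In the counts, Igf1r was below the controls in QKO but not in MIGIRKO, and Foxo3 was not below them in QKO. FoxO loss, Igf1r loss and colony cannot be told apart in this comparison. The difference was called for 4 of the 27 genes, all higher, where 3.61% of all tested genes were called higher, 2.15% lower and 5.76% either way. It was 1.36 ± 0.33 for mt-Nd2 (edgeR adjusted p = 0.0140), 2.32 ± 0.57 for mt-Tl1 (0.0142), 1.13 ± 0.32 for mt-Nd6 (0.0331) and 0.96 ± 0.27 for mt-Nd5 (0.0336). mt-Nd1 (0.80 ± 0.29, adjusted p = 0.0972), mt-Co1 (0.88 ± 0.35), mt-Nd4 (1.06 ± 0.37) and mt-Cytb (1.07 ± 0.37) had positive values that missed the threshold. No call remained with library runs as a block, without Qlox 1 or without Qlox 2, and 2 genes were called with library totals, where calls over all genes went from 293 lower and 493 higher to 1238 and 166. DESeq2 called 7.

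Set directly against each other, across colonies, QKO and MIGIRKO libraries differed in part of the mitochondrial genes on TMM-scaled totals. In QKO, 15 of 27 tested genes were called higher and 0 lower. Of all tested genes, 16.2% were called higher, 14.0% lower and 30.2% either way. This comparison shares its knockout libraries with those above. The called genes were 8 tRNAs and the mRNAs mt-Nd1, mt-Nd2, mt-Nd4, mt-Nd5, mt-Nd6, mt-Co1 and mt-Cytb. The largest mRNA difference was that of mt-Nd2, at 1.11 ± 0.17 (edgeR adjusted p = 1.10e-05). The libraries of the groups did not overlap for mt-Nd1, mt-Nd2, mt-Nd5 and mt-Nd6, with QKO at 8529 to 13890 CPM for mt-Nd1 and 748 to 1503 CPM for mt-Nd6. The 6 mRNAs wholly inside the copied stretch had negative values (-1.34 to -0.06), and 0 of them was called. Among them, mt-Nd3 was -0.31 ± 0.68 (edgeR adjusted p = 0.775), and 0.85 (adjusted p = 0.0486) when summed with its copy. With library totals 9 genes were called, the median of mt-Nd1, mt-Nd2, mt-Nd4, mt-Nd5, mt-Nd6, mt-Co1 and mt-Cytb was 0.56, that of all genes -0.41, and calls over all genes went from 1912 lower and 2204 higher to 5895 and 754. The rRNAs were not called (0.42 ± 0.24 and 0.41 ± 0.24). Of the marker lists given below, 7 of 8 fast fiber and 7 of 8 slow fiber markers were also called higher. Called lower were 6 of 6 adipocyte, 4 of 6 Schwann cell, 3 of 6 fibroblast and 1 of 7 immune markers. Of the endothelial and blood markers 0 were called. Each of the 7 nuclear lists given below had 2 to 10 genes called higher and 0 to 1 lower. Their part in the mitochondrial values was not tested.

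Among the 4 floxed groups, which differ by colony, 0 of the 27 genes were called by edgeR (1, mt-Ta, at an unadjusted p under 0.05, beside 1526 of all tested genes, and 0 by DESeq2), where 0.264% of all tested genes were called.

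Within the mitochondrial transcripts, the mean ratio of rRNA to mRNA lay above that of the controls in all 4 knockout groups, although no comparison passed after adjustment. This ratio is taken within a library, so that library size and scaling drop out. Differences between libraries in how the RNA was prepared do not drop out, and their part was not tested. rRNAs were 7.13% ± 1.02 of mitochondrial counts in IRlox and 9.97% ± 1.81 in MIRKO, 7.41% ± 1.81 in IGFRlox and 11.1% ± 2.33 in MIGF1RKO, 8.70% ± 1.12 in IRIGFRlox and 13.2% ± 2.63 in MIGIRKO, and 7.27% ± 1.19 in Qlox and 10.7% ± 2.08 in QKO (mean ± SD, n as above). The log2 rRNA-to-mRNA ratio was higher by 0.52 in MIRKO, 0.64 in MIGF1RKO, 0.66 in MIGIRKO and 0.60 in QKO. Exact two-sided permutation tests gave p = 0.0571, 0.0317, 0.0476 and 0.0556, each 0.171 after adjustment over 12 ratio comparisons, and the first and last of these are the smallest p their numbers of libraries allow. MIRKO and QKO did not overlap their controls, and MIGF1RKO and MIGIRKO did. Leaving out each library in turn gave 0.39 to 0.81 over the 4 comparisons. Library runs, the 6 blocks of consecutive library numbers in the labels, gave positive differences in 1 of 1, 3 of 3, 2 of 3 and 2 of 2 runs that held both groups, each run with 1 library a group. On TMM-scaled totals the mRNA medians were -0.69 and -0.92 in MIRKO and MIGIRKO and the rRNA medians 0.84 and 0.67 in MIGF1RKO and QKO.

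**Figure D5:**
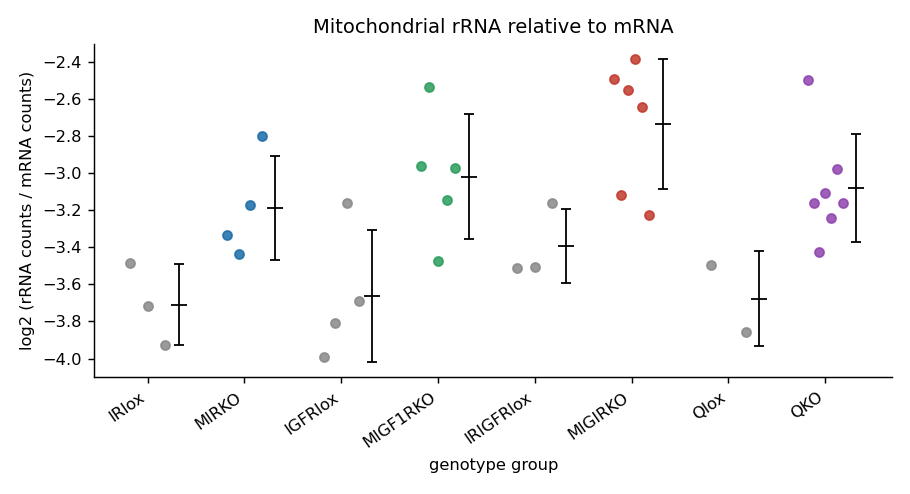
Log2 ratio of summed mitochondrial rRNA counts to summed mitochondrial mRNA counts in each library (points) of the 8 groups, with mean and SD. The floxed groups have means of -3.71 to -3.39 and the knockout groups of -3.19 to -2.74.

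No comparison of mt-Nd6, the mRNA of the other strand, or of the tRNAs with mRNA passed. The log2 ratio of mt-Nd6 to the other mRNAs differed by 0.18 in MIRKO, -0.16 in MIGF1RKO, -0.03 in MIGIRKO and 0.11 in QKO (exact permutation adjusted p of 0.610, 0.343, 0.857 and 0.556). tRNA counts, mostly from mt-Ta and mt-Te, the glutamate tRNA, were 0.0132% to 0.0360% of all counts in the group means. Their log2 ratio to mRNA differed by 0.31, -0.33, -0.03 and 0.31 in the same order (exact permutation adjusted p of 0.610, 0.724, 0.857 and 0.610), with IGFRlox 2, at 1.59% tRNA among its mitochondrial counts, lying far above the other controls. These values do not show that the ratios are equal.

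Most mRNAs outside the copied stretch varied together over the libraries. As a description over 34 libraries, which share tissue, colony and depth, log2 CPM of mt-Nd1 and mt-Nd5 correlated at r = 0.926, mt-Nd2 and mt-Nd5 at 0.941, and mt-Rnr1 and mt-Rnr2 at 0.884, while mt-Nd1 and mt-Rnr1 correlated at 0.352. The nuclear genes most like the summed mitochondrial mRNAs, of 12328 compared, were Uqcrfs1, the iron-sulfur subunit of complex III (r = 0.897), Dlat, a pyruvate dehydrogenase subunit (0.896), Mkks (0.868), Hikeshi (0.862) and Atp5c1, an ATP synthase subunit (0.859).

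Of nuclear genes that serve the expression of the mitochondrial genome, 2 to 9 in each of 7 lists were called lower in MIGIRKO on TMM-scaled totals, and 0 genes of any list were called higher. Of the transcription machinery, 4 of 9 tested genes were called lower (list of 11): Tfb2m, a transcription initiation factor (-0.75), Mterf2, a termination factor family member (-0.83), Polrmt, the mitochondrial RNA polymerase (-0.62), and Mrpl12, a ribosomal protein that binds the polymerase (-0.85). Of genes for mitochondrial DNA replication and nucleotide supply 5 of 17 were lower, among them the ADP/ATP carrier Slc25a4 (-0.87) and the topoisomerase Top1mt (-1.03). For RNA cleavage, stability and decay it was 7 of 20 tested (list of 22), including Lrpprc, which stabilizes mitochondrial mRNAs (-0.69), Fastkd2 (-0.78), Grsf1, an RNA granule protein (-0.55), and Fastk, which acts on mt-Nd6 (-0.63). RNA modification enzymes were lower in 7 of 22, led by Rpusd3 (-1.08), a pseudouridine synthase. tRNA synthetases and their partners were lower in 9 of 22, such as Cars2 for cysteine (-1.07) and Aars2 for alanine (-0.73). Translation factors were lower in 6 of 14, with Mss51, a muscle protein named for a yeast translation activator, by far the largest (-4.80), then Taco1, an activator of mt-Co1 translation (-1.16), and the elongation factors Gfm1 (-0.74) and Gfm2 (-0.79). Regulators of mitochondrial biogenesis were lower in 2 of 11, Perm1 (-0.997) and Esrra (-1.03). The list medians were -0.43 to -0.11, beside 0.04 for all tested genes and 16.7% of them called lower. With library totals the calls of Rpusd3, Mss51, Taco1, Slc25a4, Top1mt, Perm1 and Esrra remained among the genes named here and those of the rest were lost.

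The other groups had fewer calls in these lists, and also fewer over all tested genes. Of all tested genes, 0.865% were called lower in MIRKO, 0.352% in MIGF1RKO and 0.454% in QKO, beside 16.7% in MIGIRKO. MIRKO had Mss51 (-2.81), Gfm1 (-0.57) and Taco1 (-0.70) of 14 translation factors called lower, and Osgepl1, a tRNA modification enzyme (-0.64), of 22 modification enzymes. The calls of Gfm1, Taco1 and Osgepl1 were lost with library totals, with no filter, without the libraries labelled MIRKO 4 and MIGIRKO 6 and with the compared groups only, and those of Taco1 and Osgepl1 also with library runs as a block. With single libraries left out counted too, Gfm1 was called under 39, Taco1 under 38 and Osgepl1 under 38 of 48 alternatives. MIGF1RKO had Mss51 alone (-2.95). In QKO 0 genes of the 7 lists were called by edgeR, and Mss51 had -1.23 ± 0.44 (adjusted p = 0.265).

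Markers of fiber types and of other cell types differed between the same groups. Of all tested genes, 16.7% were called lower and 17.0% higher in MIGIRKO. The shares were 0.865% and 0.381% in MIRKO and 0.454% and 0.0513% in QKO, so 0 called markers there do not show equal levels. Summed CPM of the 8 fast fiber markers, which were present in all groups as the tissue label requires, lay at 53385 to 93522 for MIGIRKO against 158359 to 182862 for IRIGFRlox (5 of 8 called lower), and at 75131 to 131428 for MIRKO against 150566 to 169393 for IRlox (0 of 8 called). In MIGIRKO the 7 immune markers summed to 667 to 1941 CPM against 187 to 284, with 7 of 7 called higher, the 6 adipocyte markers to 393 to 1349 against 164 to 179, with 6 of 6, and the 6 Schwann cell markers to 372 to 712 against 182 to 282, with 5 of 6. Of 6 fibroblast markers 4 were called higher, of 8 slow fiber markers 3 were called lower, and of the 5 endothelial and 5 blood markers 0 were called. In MIRKO the immune markers summed to 541 to 1134 CPM against 292 to 351, with 0 of 7 called. In QKO the slow fiber markers summed to 1679 to 3059 CPM against 924 to 1087, and the immune markers to 267 to 2993 against 213 to 255, with 0 of 8 and 0 of 7 called. Cardiac markers summed to 22.7 to 31.5 CPM in Qlox and 3.63 to 92.8 in QKO and stayed at or below 7.27 in the other groups. No marker was at 0 in all 34 libraries, and the part of these cells in the mitochondrial values was not tested. With the fast fiber markers taken out of the library totals, the mitochondrial share was lower by 1.71 points in MIGIRKO and by 1.79 points in MIRKO (exact permutation adjusted p = 0.238 and 0.143).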

How the data were processed

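The deposited file holds raw counts per Ensembl gene for 34 libraries, and all its columns were used. Per the submitters' processing notes, the authors used GRCm38.p4, STAR and featureCounts; versions, annotation release, strand setting and the treatment of multi-mapping reads are not given in the sources used here. Groups come from the labels. Nothing pairs knockout and control mice. Symbols come from GENCODE M21, which matched 45143 of 46071 IDs. Members and gene lists were chosen with earlier results of these data known, so a list's direction is no independent evidence.

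Counts were analysed with edgeR 4.0.16 in R 4.3.3: filterByExpr over the 8 groups (13646 genes), TMM factors and robust quasi-likelihood fits with 1 mean per group over all 34 libraries, adjusted by Benjamini-Hochberg over all tested genes. SE is the change over the square root of F. Shares and class ratios were tested by exact two-sided permutation over libraries (scipy 1.17.1). Nuclear copies were found with blastn 2.17.0 (word size 20) in the annotated transcripts, at 99% identity and 100 bases or more. Alternatives were DESeq2 1.42.0, limma-voom (limma 3.58.1), other scalings and filters, library runs as a block, other control sets and left-out libraries; summing genes with their copies and leaving out QKO 3, QKO 5 and QKO 6 were added after the data were seen. The procedure was tested on simulated data. It recovered 39.4% (QKO against Qlox) to 57.6% (MIGF1RKO against IGFRlox) of 2-fold changes. Of 1.5-fold changes it recovered 7.58% to 21.5% in the same comparisons, so a gene that was not called is not shown to be unchanged. Named genes are the members called in any of the 4 knockout comparisons, mt-Nd6, the rRNAs, and of each list up to 4 called genes with the smallest adjusted p (or the gene with the smallest p); the paragraphs on mt-Nd3, its copy and neighbours were written after their values were seen. Depth was 1499025 to 7581198 counts per library. Most tRNA genes had few counts and 2 had 0 in all 34 libraries, a limit whose cause was not tested. The labels do not state that replicate libraries are separate mice, so p-values measure only the spread between these libraries.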

Additional observations from a re-analysis of the deposited data

Results flagged for a closer look

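The level of mt-Tq, the glutamine tRNA gene, in QKO had a library far from the others: the highest, QKO 5, was at 4.36 CPM and the next at 2.30, a gap of 0.582 of the group's range where 0.568 is the limit for 7 libraries. QKO 5 is also the library with the lowest total. It was the only such case in 85 groups of values examined, and chance gives about 1 in 20.

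The QKO change was higher than the MIGIRKO change for mt-Tl1 by 2.32, for mt-Nd2 by 1.36, for mt-Nd5 by 0.96 and for mt-Nd6 by 1.13 on the log2 scale, each by a test of the difference itself (edgeR adjusted p of 0.0142, 0.0140, 0.0336 and 0.0331). Leaving out either Qlox library ended all 4 calls.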

How the results depend on the processing

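No paired analysis was possible because no litter or shared number ties a knockout to a control. Here and above, a count under an alternative has no background where calls over all tested genes are not printed beside it. A change in such a count is not read as a result about these genes. For MIRKO, where 1 gene was called, the number was 3 by DESeq2, 2 with no filter, 2 without QKO 5 and QKO 6, 2 without QKO 3, QKO 5 and QKO 6, 8 with all 12 floxed libraries as control (where 2778 of all 13115 tested genes were called, against 170 of 13646), and 0 with library totals, with library runs as a block, with the compared groups only and with MIRKO 4 and MIGIRKO 6 left out; leaving out each library gave 0 to 2. For MIGF1RKO (0 called) it was 1 by DESeq2, 2 with all 12 floxed libraries and 0 to 1 on leaving out each library. For MIGIRKO (10) leaving out each library gave 6 to 12. For QKO change minus MIGIRKO change (4) it was 7 by DESeq2, 2 with library totals, 0 with library runs as a block, 7 without QKO 5 and QKO 6, and 0 to 7 on leaving out each library. For QKO against MIGIRKO (15) it was 9 with library totals and 11 to 15 on leaving out each library. Its share difference was 2.30 points on TMM-scaled totals and 0.956 to 1.37 on leaving out each library. As means over single genes, the mt-Nd6 ratio in MIGIRKO turned to 0.23 and the tRNA ratio to 0.38 in MIGF1RKO and 0.57 in MIGIRKO. On leaving out each library, the mt-Nd6 ratio in MIGIRKO ran from -0.14 to 0.0920, the tRNA ratio from -0.75 to 0.15 in MIGF1RKO and from -0.18 to 0.12 in MIGIRKO, and the share in QKO against Qlox from -0.050 to 0.845. The causes were not tested. Of the values for these counts, shares and ratios under alternatives, 472 stayed the same, 32 moved, 8 reversed and 2 passed a threshold that the reported value missed. For a share or ratio, the same means that direction and side of the threshold were kept. For a count of called genes, it means a count equal to or near the reported one, so single calls can differ. In MIGIRKO with library totals, the calls of mt-Co1, mt-Cytb and mt-Tq were lost.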
